A study of Mus musculus with 40 samples.

Results

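The cerebellum of aged mice that lacked Ttpa and were fed on the deficient diet was compared with that of aged wild-type mice fed on the normal diet. The 8 arrays were taken by their sample titles, 4 for each group, out of 40 arrays in the series, which also held cerebral cortex, wild-type mice of 2 months, Ttpa-/- mice on a supplemented diet and aged wild-type mice given the deficient diet. All mice of both groups were 29 months old. The paper names a mouse strain, C57Bl/6, only for its ischaemia model. The normal diet held 36 mg of alpha-tocopherol per kg, the supplemented diet 600 mg per kg, and no amount was stated for the deficient diet. Ttpa-/- mice on the normal diet were not analysed here, so within this comparison the loss of Ttpa and the deficient diet cannot be told apart. The 4 Ttpa-/- arrays of this comparison lay on one slide together with the Ttpa-/- arrays of the supplemented diet, and the aged wild-type arrays of both diets on another, so slide and genotype cannot be told apart either.

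Ttpa encodes the alpha-tocopherol transfer protein, which loads alpha-tocopherol, the main form of vitamin E in tissue, onto lipoproteins leaving the liver. Alpha-tocopherol stops the chain of lipid peroxidation in membranes. Without the protein, plasma vitamin E falls, and in people the inherited loss causes an ataxia in which the cerebellum and its afferent pathways are affected. The deficient diet removes the small supply that reaches tissue without the protein, and such mice have been used as a model of lasting oxidative stress in the brain. In aged brain, microglia also take on a primed state with raised complement, lysosomal and MHC class II genes.

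Each array was a single-colour Agilent mouse array of total RNA. Values below are log2 levels relative to the 75th percentile of the array, so that 0 is a fairly bright probe and values near -6 are at the background. Tested probes were those well above background on every array of one or both groups. A probe was called where limma, fitted over all 40 arrays, gave a fold change over 1.5 with a Benjamini-Hochberg adjusted p under 0.05. The 75th percentile of intensity was 503.5 to 720.6 on the Ttpa-/- arrays and 616 to 683 on the wild-type arrays. Between 31040 and 31536 probes lay above background in Ttpa-/- mice and between 31500 and 33714 in wild-type mice (exact two-sided permutation test, p = 0.0571, where 0.0286 is the smallest p that 4 against 4 allows). Calbindin (Calb1) of Purkinje cells and Gabra6 of granule cells were markers chosen after their values were seen. Their mean levels were 4.93 and 4.99 in the Ttpa-/- arrays and 5.02 and 5.09 in the wild-type arrays. Most markers on their lists went the other way, with 13 of 20 Purkinje and 10 of 16 granule cell genes at a higher mean in Ttpa-/- arrays. On the log2 scale, the summed granule cell level was 5.06 to 5.19 against 4.93 to 5.12 (exact two-sided permutation test, p = 0.0571). These RNAs came from whole tissue, in which fewer cells of a type and less RNA per cell cannot be told apart.

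In the Ttpa-/- mice on the deficient diet, 817 of 30604 tested probes were up-regulated and 549 down-regulated. These are 4.46% of the probes tested, 2.67% up and 1.79% down. The values of the groups did not overlap for 17% of all probes tested, for 720 of the 817 probes called up and for 424 of the 549 called down. The median change over all probes tested was -0.02 on the log2 scale, and 53.85% of them had a lower mean in the Ttpa-/- mice. Most changes were modest, with 185 rises and 168 falls over 2-fold, and the called probes were dim, with a median level of -2.28 for the rises and -2.81 for the falls against -0.43 for all probes tested.

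Falls outnumbered rises among genes with a known name, and rises outnumbered falls among unannotated transcripts. Probes for named genes were up-regulated in 267 of 20262 cases (1.32%) and down-regulated in 427 (2.11%). Probes for long intergenic non-coding RNA positions were up-regulated in 349 of 5474 cases (6.38%) and down-regulated in 61 (1.11%). Among odorant receptors, which belong to sensory neurons of the nose, 16 of 80 tested probes rose and none fell at this threshold, with a median change of 0.36. The same receptors had a median of 0.33 when Ttpa-/- mice on the supplemented diet were set against the same wild-type arrays, and of 0.02 between the diets in Ttpa-/- mice.

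The targeted gene was read first. The brighter Ttpa probe, at chr4:19957856-19957915 of mm9, was at -6.84, -7.04, -6.83 and -6.34 in the 4 Ttpa-/- arrays and at -3.02, -3.62, -3.23 and -3.48 in the wild-type arrays. Every Ttpa-/- array was below every wild-type array, and the probe was above background on 0 of 4 and on 4 of 4 arrays. Ttpa was at least 2.64-fold lower (limma adjusted p = 4.16e-08), a lower bound set by the background, in a transcript that is itself scarce in cerebellum. The other Ttpa probe, at chr4:19955668-19955727, was not among the called probes, and its values are not given here.

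Chromosome 4, which carries Ttpa, had the highest share of called probes of any chromosome, 131 of 1976 (6.63%), with 71 up and 60 down. Chromosome 12 came next, at 5.97%. Within 10 Mb of Ttpa, 11 of 126 probes were called (8.73%), and over the rest of the chromosome 6.49%, against 4.31% elsewhere. The 11 include Ttpa itself. The rest of the chromosome includes a stretch of duplicated genes, described below and chosen after the values were seen. In it 14 of 49 probes were called (28.6%), and the share of the chromosome without it was not taken.

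Car8, a carbonic anhydrase-related protein that binds the inositol trisphosphate receptor in Purkinje cells and whose loss causes ataxia, lay at chr4:8070545-8070604. Its level was 1.56, 1.44, 1.77 and 3.65 in the Ttpa-/- arrays and 4.79, 4.68, 4.59 and 4.68 in the wild-type arrays. All Ttpa-/- arrays were lower, but replicate 4 was well above its 3 companions. Car8 fell by 2.58 (SE 0.48, limma adjusted p = 0.000569), and its second probe changed by -2.34. In the Ttpa-/- mice on the supplemented diet Car8 was at 1.67, 1.87, 1.76 and 1.88, as low as in the deficient group, while wild-type mice on the deficient diet had 4.12, 4.11, 4.40 and 4.90.

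Necab1, a neuronal calcium-binding protein, was at -5.25, -5.28, -5.94 and -3.02 in Ttpa-/- arrays and at -2.62, -2.56, -2.10 and -2.61 in wild-type arrays, so that replicate 4 again stood nearest to the wild type without reaching it. The change was -2.40 (SE 0.34, limma adjusted p = 1.99e-05). The uncharacterised transcript 4930412C18Rik behaved likewise, with -6.96, -5.54, -5.68 and -3.07 against -2.12 to -2.34 in the wild type. Klhl32, a kelch-family protein chosen after its values were seen, was at 1.96, 2.00, 1.93 and 2.27 in the Ttpa-/- arrays and at 2.77, 2.89, 2.87 and 2.87 in the wild-type arrays. Its change of -0.81 was small but exceeded the spread of either group (SE 0.08, limma adjusted p = 1.49e-08). Car8, Necab1, 4930412C18Rik and Klhl32 were also lower on every array of the supplemented Ttpa-/- group than on every normal-diet wild-type array.

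**Figure D1:**
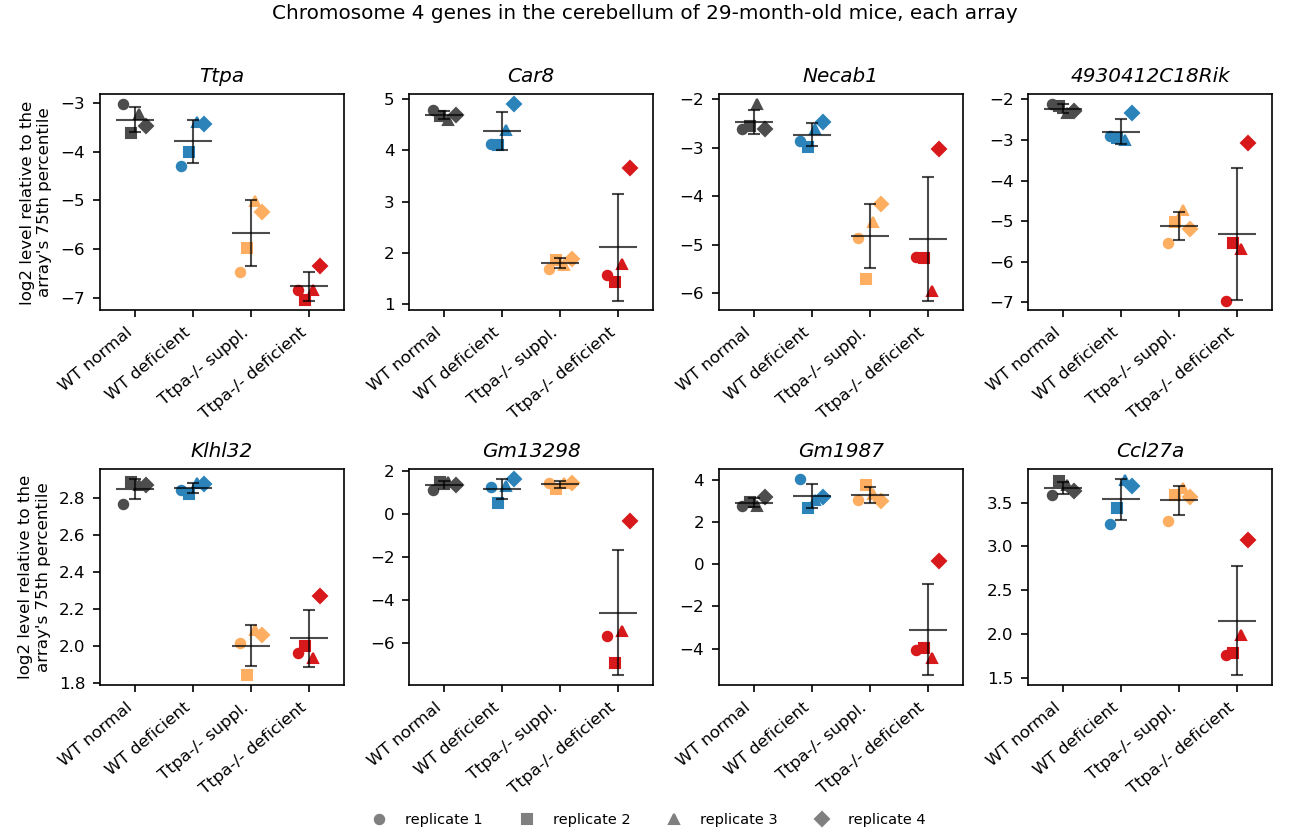
Log2 level, relative to the array's 75th percentile, of genes on chromosome 4 in the aged cerebellum, one point per array with the group mean and SD. Car8 in the Ttpa-/- deficient group has 3 arrays between 1.44 and 1.77 and replicate 4 at 3.65, below the wild-type arrays at 4.59 to 4.79.

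The falls of Gm1987, Gm13298 and 4933409K07Rik came from a stretch of duplicated chemokine and receptor genes between 41 and 43 Mb of the same chromosome. Of 49 tested probes in this stretch, chosen after the values were seen, 13 fell and 1 rose (28.6%). Copies in this stretch are nearly identical, so that a probe may read several genes. The probe windows below, read from the array annotation, are shown because near copies can share the target of a probe. The first pair differed in its call, and both probes of the second pair had lower means. Capitals mark the bases at which the probes of a pair differ.
Gm1987: tTcccttgtccttgcacctatgatttatac
Gm13304: tCcccttgtccttgcacctatgatttatac
Ccl27a: tCGGAGCccCggacatgtcgcgattgagga
Gm13308: tTCAGAGccTggacatgtcgcgattgagga
Over their shared stretch, the probes of Gm1987 and Gm13304 differed at 2 of 56 bases, and those of Ccl27a and Gm13308 at 7 of 60.

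Gm1987, a Ccl21-like chemokine gene model at chr4:42232117-42232176, was at -4.08, -3.99, -4.45 and 0.14 in Ttpa-/- arrays and at 2.77, 2.96, 2.73 and 3.17 in the wild type. The change was -6.00 (SE 0.70, limma adjusted p = 6.69e-07). Its near-copy Gm13304, chosen after its values were seen, was at 3.54, 3.92, 3.83 and 3.34 against 4.08, 4.03, 3.95 and 4.37, and its change of -0.45 was not called (adjusted p = 0.114). All 4 Ttpa-/- arrays of Gm13304 lay below all 4 of its wild-type arrays, by a small margin.

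Gm13298 was at -5.65, -6.93, -5.42 and -0.34 in the Ttpa-/- arrays and at 1.11 to 1.49 in the wild type. 4933409K07Rik was at -6.67, -6.90, -6.71 and -0.23 against 0.41 to 0.65, and Gm3893, which the array annotation does not place on a numbered chromosome, at -5.60, -4.89, -6.03 and -1.34 against 0.38 to 0.85. In each of them 3 Ttpa-/- arrays were near the background and replicate 4 was far above those 3, though still below the wild type. Ccl27a, a skin-homing chemokine, followed the same order at a higher level, with 1.76, 1.78, 1.98 and 3.07 against 3.59 to 3.75, a change of -1.52 (limma adjusted p = 2.54e-05). Ccl19, a lymphoid chemokine, fell on its brightest probe but was not called on its other probes (-0.18 and -0.50). In the list of copy-variable regions 5 of 8 tested genes fell, against 1.79% of all probes tested. That list was made with earlier results of these data known, so its count is not independent evidence. The count fell to 0 with the methods' t-test after Benjamini-Hochberg. On the probe printed above, the Ccl27a change was -1.97, and that of Gm13308 was -1.61.

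The diet groups parted the genes of this chromosome into 2 patterns. In the Ttpa-/- mice on the supplemented diet, Gm1987 was at 2.97 to 3.76, Gm13298 at 1.15 to 1.46 and Ccl27a at 3.29 to 3.67, within or near the range of the wild type, whereas Ttpa, Car8, Necab1 and Klhl32 were low in both Ttpa-/- groups. Between the diets in Ttpa-/- mice, 0.343% of 30643 tested probes were called, 41 up and 64 down in the deficient group. Gm1987 was among those down (-6.37, limma adjusted p = 1.7e-06), as was Gm13298 (-5.96), while Car8 was not (0.31, adjusted p = 0.92). With the 2 groups fitted alone, no probe was called between these diets. These comparisons share the deficient Ttpa-/- arrays with the main one. Whether the mice of the 2 Ttpa-/- groups came from one breeding line was not given in the sources used here, and its part in these values was not tested.

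**Figure D2:**
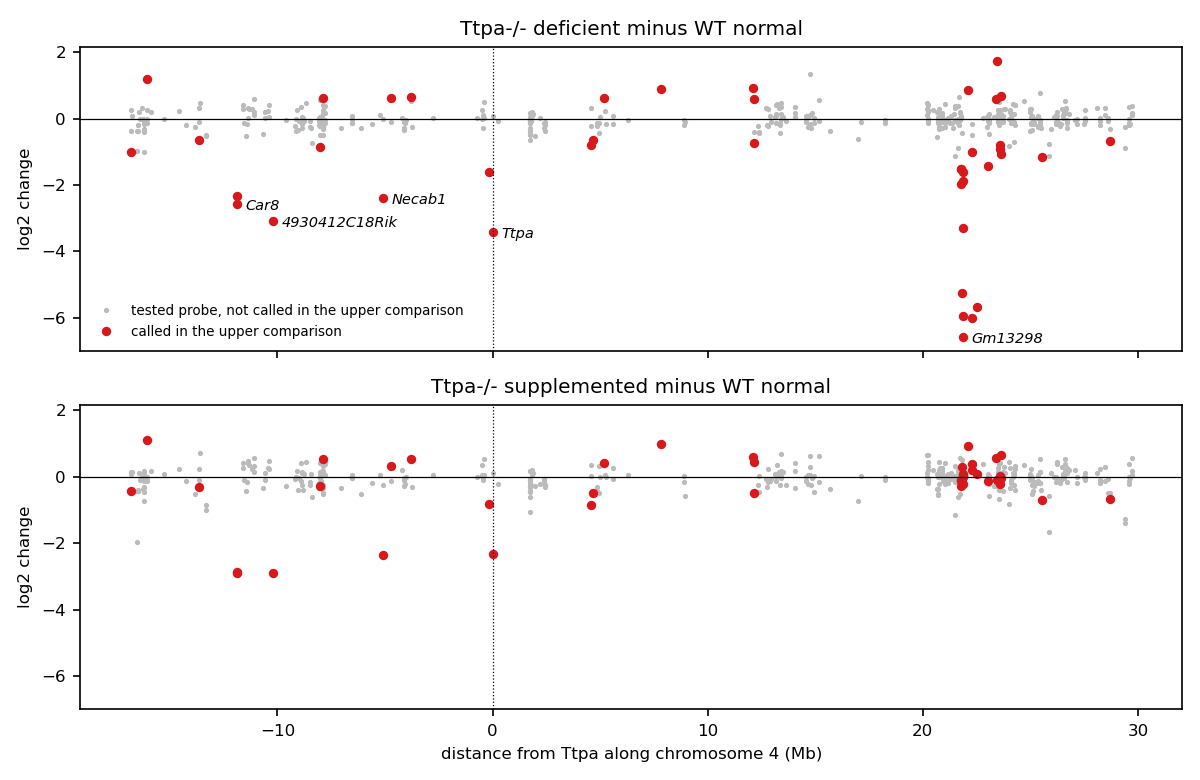
Log2 change of each tested probe in the part of chromosome 4 around Ttpa, against its distance from Ttpa in Mb, for the Ttpa-/- mice on the deficient diet (top) and on the supplemented diet (bottom), each minus wild type normal in the cerebellum, with probes called in the upper comparison in red in both panels. Car8 lies about -11.9 Mb from Ttpa and is low in both panels, whereas the deep falls of the copied genes near 22 Mb stand in the top panel only.

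Among immune genes, 4 of the MHC class II pathway and 6 of activated microglia fell, and no member of the microglial, complement or antigen presentation lists was called up. MHC class II proteins present peptides to CD4+ T cells, and in brain they are made mainly by microglia, border macrophages and invading cells. Of 13 tested genes of antigen presentation, 4 fell and none rose, all 4 of them of class II, and the median over the list was 0.02. The proximal promoters of class II genes carry a conserved module that ends in a Y box. The 200 bases before the start of 3 class II genes (GRCm38.p6, RefSeq) are given to show it, with ATTGG, read on both strands, and TGACG, also on both strands, in capitals. H2-Oa, chosen after its values were seen, was at chr17:34092179-34092378 on the plus strand, H2-Aa at chr17:34287824-34288023 on the minus strand and H2-Eb1 at chr17:34305667-34305866 on the plus strand.
H2-Oa: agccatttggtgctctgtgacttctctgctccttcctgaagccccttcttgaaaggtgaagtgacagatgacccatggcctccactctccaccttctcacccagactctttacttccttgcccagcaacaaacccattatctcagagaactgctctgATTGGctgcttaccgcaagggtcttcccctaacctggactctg
H2-Aa: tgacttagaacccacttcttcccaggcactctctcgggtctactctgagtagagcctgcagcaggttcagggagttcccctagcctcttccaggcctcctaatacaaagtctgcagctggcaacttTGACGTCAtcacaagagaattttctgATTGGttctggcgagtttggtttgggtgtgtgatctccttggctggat
H2-Eb1: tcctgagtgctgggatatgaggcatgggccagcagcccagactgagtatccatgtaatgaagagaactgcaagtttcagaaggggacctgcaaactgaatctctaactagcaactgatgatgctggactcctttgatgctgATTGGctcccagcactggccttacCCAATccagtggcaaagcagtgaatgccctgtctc
ATTGG stood in all 3 windows and in 29.3% of 32851 promoter windows of the same length, and TGACG in 15.7% of them.

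H2-Aa, the alpha chain of I-A, was at -3.34, -3.70, -3.38 and -3.14 in the Ttpa-/- arrays and at -1.04, -2.16, -2.94 and -2.74 in the wild type. H2-Eb1, the beta chain of I-E, was at -0.30, -0.50, -0.41 and 0.36 against 2.23, 0.84, 0.48 and 0.53. Wild-type replicate 1 was the highest array for each of these genes. Cd74, the invariant chain that guards the peptide groove, was at -1.41, -1.77, -1.66 and -1.23 against 0.75, -0.34, -0.60 and -0.75, and H2-Ab1 was at -0.42, -0.56, -0.23 and 0.44 against 1.82, 0.64, 0.42 and 0.53. The groups did not overlap for Cd74, H2-Aa or H2-Eb1 and overlapped slightly for H2-Ab1. The changes were -1.28 (Cd74), -1.23 (H2-Eb1), -1.17 (H2-Aa) and -1.05 (H2-Ab1), with limma adjusted p between 0.00562 and 0.018. Without wild-type replicate 1 the count fell from 4 to 1, and Cd74 alone was still called, while with these groups fitted alone none of the 4 was called. H2-Oa, which tempers peptide loading in B cells, changed by -1.50 (limma adjusted p = 0.00114). Its call was lost with normexp background correction and with the methods' t-test after Benjamini-Hochberg. Class I genes gave no such values, with 0.10 for H2-D1 and 0.19 for H2-K1, both chosen after their values were seen.

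Tyrobp, the signalling adaptor of Trem2, was at 2.33, 2.61, 2.38 and 2.42 in the Ttpa-/- arrays and at 3.17, 3.16, 3.18 and 3.43 in the wild type. The groups were well apart, and the change was -0.80 (SE 0.13, limma adjusted p = 0.000187). In the list of genes raised in disease-associated microglia, 20 of 22 tested genes had a lower mean in the Ttpa-/- mice, 6 fell and none rose. Of all probes tested, 53.85% had a lower mean and 1.79% were called down. The median was -0.41 against -0.02 for all probes tested. The summed level of this list was 4.08 to 4.37 in the Ttpa-/- arrays and 4.30 to 4.59 in the wild type, with overlap (exact two-sided permutation test, p = 0.143). Beside Tyrobp these were Cst7, a cystatin (-1.10), Gpnmb (-0.85), the chemokine Ccl6 (-0.73), lipoprotein lipase Lpl (-0.67) and osteopontin Spp1 (-0.63). The count of 6 fell to 2 without Ttpa-/- replicate 3 and to 4 without wild-type replicate 4, and with the arrays scaled to their median Cst7, Gpnmb and Lpl were no longer called. Igf1 changed by 0.55 (adjusted p = 0.037), under the fold threshold.

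C1qa and C1qb, chains of the subunit that starts the classical complement pathway, fell as well. C1qb was at 1.60, 1.74, 1.43 and 1.40 against 2.32, 2.28, 2.30 and 2.50, and C1qa at 2.02, 2.28, 2.12 and 1.80 against 2.70, 2.69, 2.62 and 2.81, without overlap. The changes were -0.81 and -0.65 (limma adjusted p = 0.000381 and 0.00371), the call of C1qa being lost without Ttpa-/- replicate 4, and C1qc changed by -0.41. Over 13 tested complement genes 2 fell, none rose and the median was -0.19.

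Among 14 homeostatic microglial genes, 12 had a lower mean, against 53.85% of all probes tested. The median of the list was -0.14, and the sizes of change varied. Fcrls, an Fc receptor-like protein of resident microglia, was at -1.54, -1.67, -1.67 and -1.73 in the Ttpa-/- arrays and at -0.30, -0.10, -0.20 and -0.29 in the wild type, a change of -1.43 (SE 0.23, limma adjusted p = 0.000109) and the largest of its list. Aif1, which encodes the microglial marker Iba1, changed by -0.59 (adjusted p = 0.018), a call lost without Ttpa-/- replicate 1 or 3 or wild-type replicate 1 or 3. Tmem119 and Cx3cr1, defining markers chosen after their values were seen, were at 0.06 and 2.06 in Ttpa-/- mice and at 0.06 and 2.11 in the wild type. In all, 2 of 14 fell, none rose, and the summed level of the list, on the log2 scale, was 3.82 to 4.31 against 4.06 to 4.32 (exact two-sided permutation test, p = 0.486).

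Other microglial genes stood in the lists of lipid mediators and of lysosomes. Hpgds, the haematopoietic prostaglandin D synthase, was at -4.23, -4.52, -4.70 and -5.01 against -3.22, -3.20, -3.15 and -3.30, a change of -1.40 (limma adjusted p = 0.000441). Thromboxane synthase Tbxas1 changed by -0.71 and Laptm5, a lysosomal protein of blood cells, by -0.86. Of 25 tested genes of phospholipase A2 and eicosanoid metabolism Hpgds and Tbxas1 fell, and of 23 lysosomal genes only Laptm5 did. Of the 23, 21 had a lower mean, against 53.85% of all probes tested, with a median of -0.19. With normexp background correction neither Hpgds nor Tbxas1 was called.

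These genes were also read in young wild-type mice, whose arrays lay on another slide than either aged group, so slide and age cannot be told apart. Of the 14 genes called down in the lists of microglia, complement and antigen presentation, 13 had a mean in the young cerebellum below that of the aged Ttpa-/- mice. The 14 were chosen by their fall against the aged wild type, and the share over all probes is not given here. For Tyrobp the young mean was 0.75, against 2.43 in the aged Ttpa-/- mice and 3.24 in the aged wild type, and for C1qb it was 0.22, against 1.54 and 2.35. The exception was Fcrls, at -1.56 in young mice and -1.65 in the Ttpa-/- mice.

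**Figure D3:**
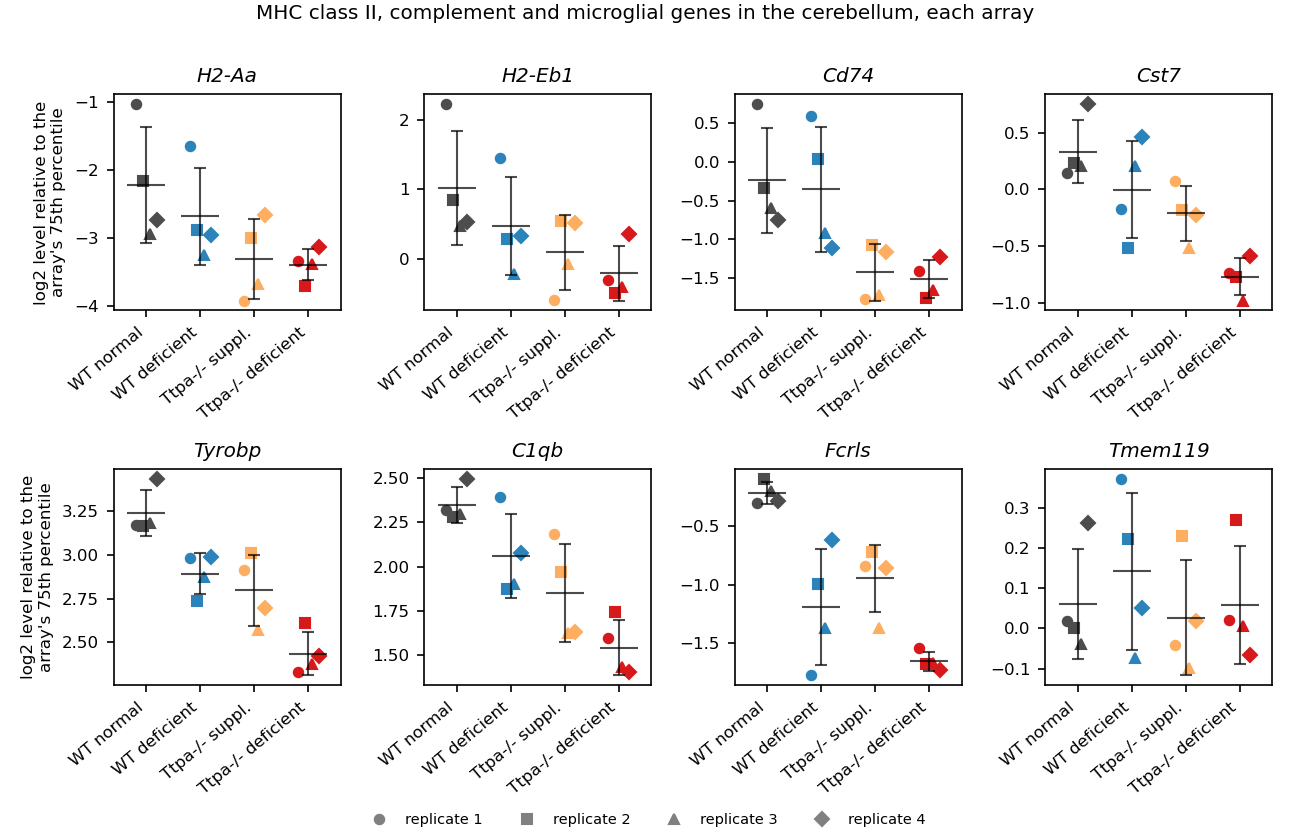
Log2 level, relative to the array's 75th percentile, of MHC class II, complement and microglial genes in the 4 aged cerebellum groups, one point per array with the group mean and SD. Tyrobp is at 2.33 to 2.61 in Ttpa-/- mice on the deficient diet and at 3.16 to 3.43 in wild-type mice on the normal diet, with the means of both other groups between these, whereas the groups overlap for Tmem119.

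Myelin genes mostly had lower means. Opalin, a membrane protein of mature oligodendrocytes, was at -3.09, -2.13, -2.85 and -2.45 in the Ttpa-/- arrays and at -0.84, -1.44, -0.85 and -1.54 in the wild type, without overlap, a change of -1.47 (SE 0.39, limma adjusted p = 0.0116). Of 17 tested genes 15 had a lower mean, against 53.85% of all probes tested. Of these genes 3 fell and none rose, with a median of -0.39. Mag and Mbp, an adhesion molecule and the main basic protein of myelin, changed by -0.66 and -0.62, close to the threshold, and the count fell to 1 on leaving out Ttpa-/- replicate 1, 3 or 4 or wild-type replicate 3 or 4. The summed level of the list was 4.06 to 4.45 in the Ttpa-/- arrays and 4.46 to 4.63 in the wild type. The groups did not overlap (exact two-sided permutation test, p = 0.0286, the smallest possible). Summed levels of other lists were tested likewise, without adjustment for their number, and the lists were chosen with earlier results of these data known. Opalin also changed by -1.39 in wild-type mice on the deficient against the normal diet (limma adjusted p = 0.037). That comparison shares the wild-type arrays, and 1.27% of its probes were called. No probe in it, Opalin included, was called with its groups fitted alone or with the methods' t-test after Benjamini-Hochberg. The level of Opalin was -1.86 to -1.15 in the Ttpa-/- mice on the supplemented diet. Over the 17 myelin genes, 4 fell between the diets in the wild type (median -0.45), calls lost with these groups fitted alone. In the cortex contrast 4 of the 17 fell (median -0.56). With Ttpa-/- set against wild type on the deficient diet, 1 rose and none fell (median 0.18). None of 10 tested genes of oligodendrocyte precursors was called (median -0.12).

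Markers of cerebellar neurons were mostly not called. Of 20 Purkinje cell genes only Car8 was called, with a median of 0.04, and none of 16 granule cell genes (median 0.09), 13 interneuron genes (median 0.12) or 7 genes regulated by RORalpha in Purkinje cells was called. The same held for 18 glutamate and GABA receptors, 19 ion channels and calcium pumps, 13 axonal genes, 15 immediate early genes and 6 genes of forebrain neurons. Among 24 genes of inherited ataxia, Ttpa and Car8 fell and the rest were not called (median 0.07). Tyrosine hydroxylase Th, in the list of brainstem neurons but also made by some Purkinje cells, rose to 2.70, 3.26, 3.07 and 2.64 from 2.14, 2.23, 1.97 and 2.69, with replicates of the groups overlapping (0.66, limma adjusted p = 0.00346, lost without Ttpa-/- replicate 2 or wild-type replicate 3). Of neuropeptide precursors 3 of 16 fell, Cartpt (-0.97), Calca (-0.77) and Pomc (-0.74), none of them without Ttpa-/- replicate 1 or without wild-type replicate 3.

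Of 14 genes of Bergmann glia and astrocytes, 2 fell, none rose, 7 had a lower mean and the median was 0.00. The summed level of the list was 5.58 to 5.84 in the Ttpa-/- arrays and 5.70 to 5.96 in the wild type (exact two-sided permutation test, p = 0.857). Fabp7 of Bergmann glia was at 1.59, 0.33, 1.06 and 1.78 against 2.88, 2.50, 2.57 and 1.31, with overlap, and changed by -1.13 (limma adjusted p = 0.038). Gfap changed by -0.64 (adjusted p = 0.0185) and was the only one of 21 reactive astrocyte genes called. The Fabp7 call was lost without Ttpa-/- replicate 2 or 3 or wild-type replicate 1, 2 or 3, and that of Gfap without replicate 4 of either group.

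No member of the antioxidant list was called. Of 34 antioxidant and glutathione genes, 25 had a lower mean, against 53.85% of all probes tested, none passed the threshold and the median was -0.07. The largest were Hmox1, haem oxygenase (-0.44, adjusted p = 0.013), and Gpx1, a glutathione peroxidase (-0.33, adjusted p = 0.0084), both under the fold threshold. None was called of 14 genes of iron handling and lipid peroxidation (median -0.09), 13 heat shock chaperones, 21 respiratory chain genes (median -0.05) and 14 p53 targets. The unfolded protein response had a median of 0.23 over 16 genes, also without a call, and Sesn2 changed by 0.44 (adjusted p = 0.0016). For cholesterol synthesis and uptake, 18 of 19 genes had a lower mean, against 53.85% of all probes tested. The median was -0.21, without a call. Of 15 genes of vitamin E and lipoprotein handling, Ttpa and Lpl fell. Of 16 clock genes, Dbp (-0.95) and Nr1d1 (-0.68) fell, and the time of day of the dissection was not given in the sources used here. No gene was called among 19 interferon-stimulated genes (median 0.06), 17 endothelial genes (median 0.10), 12 meningeal, 8 choroid plexus, 7 red blood cell, 12 glucocorticoid-induced and 12 amyloid-processing genes, nor the one sex-linked gene tested. The summed red blood cell level ran from 2.01 to 4.43 in the Ttpa-/- arrays and from 2.49 to 5.31 in the wild type.

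**Figure D4:**
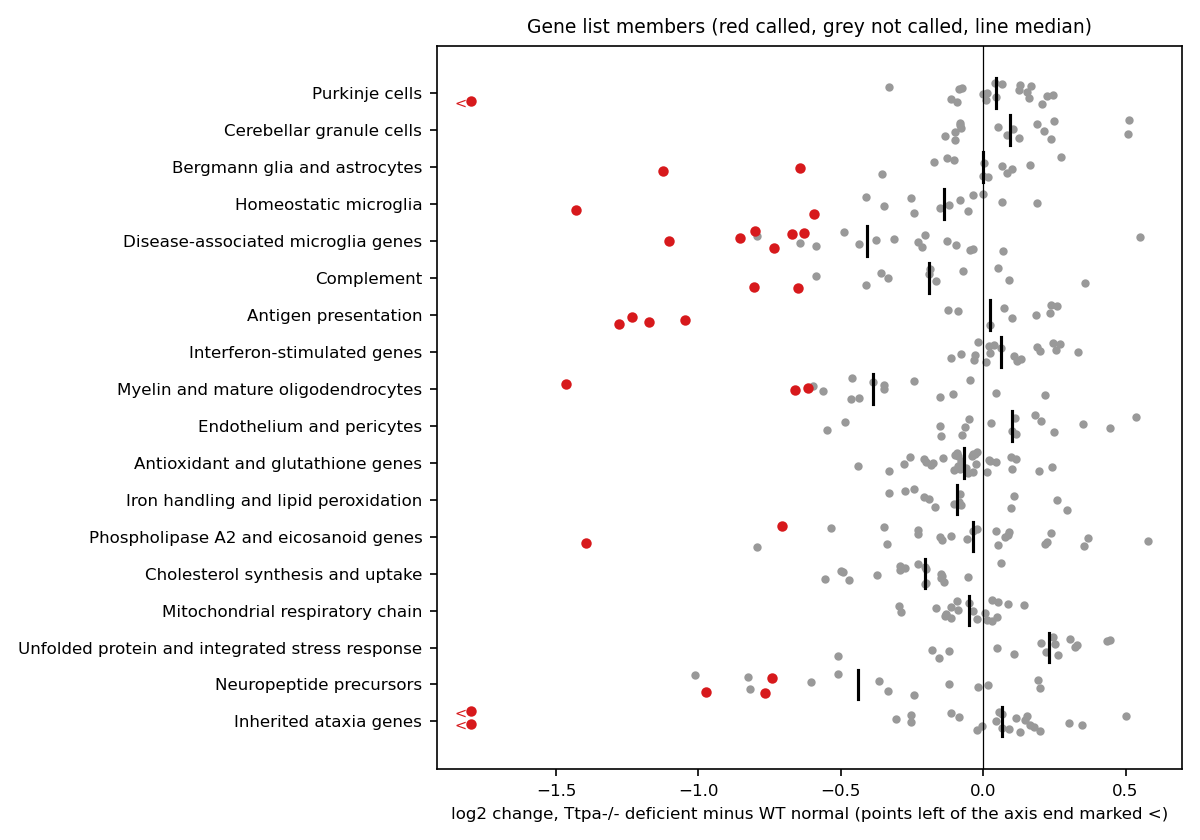
Log2 change (Ttpa-/- deficient minus wild type normal, cerebellum) of each tested member of 18 gene lists, one point per gene by its brightest probe, with called genes in red and the median of each list as a line. The called genes lie to the left of 0, and the median is -0.41 for disease-associated microglia genes and -0.07 for antioxidant genes.

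The genes that the study named for oxidative stress and ageing were Pla2g3, Fcgbp, Gm3448, Mybpc2, Tcp10c, Car8, Tsga10 and Ide. The study chose all but Ide on arrays of this series, for change in the cerebrum without a significant ageing change in the wild-type cerebellum. It reported Pla2g3, Fcgbp, Gm3448, Mybpc2 and Tcp10c up and Car8 and Tsga10 down in the cerebrum. As described, that choice used the aged wild-type cerebellum arrays but not the Ttpa-/- ones, so directions here are not independent evidence. Gm2252, which it also named, was not analysed here. Of the genes analysed and Ttpa, 7 were tested, 2 fell (Ttpa and Car8) and none rose. Pla2g3, a secreted phospholipase A2, was at -2.06, -0.93, -1.95 and -1.75 in the Ttpa-/- arrays and at -2.11, -1.85, -1.72 and -1.30 in the wild type, with the groups overlapping (0.08, adjusted p = 0.932). Tsga10 changed by -0.61 (adjusted p = 0.0582), Tcp10c by -0.57 (0.311) and Gm3448 by 0.40 (0.406). Ide, the insulin-degrading enzyme, was at 0.95, 0.96, 1.08 and 0.86 in the Ttpa-/- arrays and at 1.88, 1.97, 0.97 and 0.96 in the wild type. Wild-type replicates 1 and 2 were high and replicates 3 and 4 were at the level of the Ttpa-/- mice, and the change of -0.48 was not called (adjusted p = 0.131). Fcgbp and Mybpc2 were above background on none of the 8 arrays.

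The largest rises among named genes, by brightest probe and without overlap between the groups, were those of 15 genes. In 4 of them no wild-type array was above background, so that their size is only a lower bound, and the others changed by 1.40 to 2.13. Bex6, of the brain-expressed X-linked family, was at -3.83, -4.17, -3.96 and -3.28 in the Ttpa-/- arrays and at -6.81, -7.17, -5.35 and -7.11 in the wild type. It was above background on no wild-type array and was at least 2.34-fold higher in the Ttpa-/- mice (limma adjusted p = 2.69e-09). Barhl2, a homeobox factor of neuronal fate, was at -1.81, -1.71, -2.20 and -2.03 against -3.64, -4.32, -4.17 and -3.97, a change of 2.09 (SE 0.19, limma adjusted p = 4.49e-09). Cbx7, a Polycomb chromobox protein, was at -0.83, -0.53, -0.60 and -0.57 against -2.16, -2.45, -2.45 and -2.01, a change of 1.64 (SE 0.17, limma adjusted p = 1.14e-07). Cox17, the copper chaperone of cytochrome c oxidase, changed by 1.91 on this probe and by 0.55 on its other probe, which was not called. The rest were Olfr1173 (2.13), Lyar, Gm6993, Abhd3, Lilra5, 1700071K01Rik, Skint10, 1700102P08Rik, Bahcc1, Reg1 and Ly6f. Lyar, Gm6993 and Abhd3 were above background on no wild-type array and were at least 1.78-fold, 1.86-fold and 2.21-fold higher, and with normexp background correction none of these 3 was called. The calls of Bahcc1 and Reg1 were lost on leaving out most of the single arrays.

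The same 15 genes were read in the other aged groups. Bex6 was at -4.35, -4.30, -4.56 and -3.91 in Ttpa-/- mice on the supplemented diet, and at -6.63, -6.80, -6.97 and -6.82 in wild-type mice on the deficient diet. Of the 15 genes, 14 were called when the supplemented Ttpa-/- group was set against the wild type, 12 when both groups were on the deficient diet, 1 (1700102P08Rik) between the diets in Ttpa-/- mice and none between the diets in the wild type. Of all probes tested, 3.34% were called up in the first of these comparisons and 3.02% in the second. Of the 15 largest falls, 7, 12, 5 and 2 were called in the same comparisons, where 1.57% and 1.92% of all probes were called down in the first and second. Over the 817 up-regulated probes the median change was 0.75 in the main comparison, 0.71 for the supplemented Ttpa-/- mice against the same wild-type arrays, 0.04 between the diets in Ttpa-/- mice and 0.12 between those in wild-type mice. For the 549 down-regulated probes these medians were -0.81, -0.47, -0.34 and -0.35. These comparisons share arrays, and the probes were chosen on the main one.

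Beyond chromosome 4, the largest falls included hormone and blood cell genes at low levels. Prolactin (Prl), a pituitary hormone, was at -6.64, -6.86, -6.04 and -6.70 in the Ttpa-/- arrays and at -4.20, -0.76, -0.84 and -4.00 in the wild type. It was above background on no Ttpa-/- array, was at least 4.89-fold lower (limma adjusted p = 0.026), and spread widely within the wild type, the call being lost without Ttpa-/- replicate 4 or wild-type replicate 2 or 3. Cd79b, a chain of the B cell receptor, was at -6.43, -5.56, -6.71 and -5.61 against -1.99, -3.37, -2.77 and -4.42, at least 3.04-fold lower (limma adjusted p = 5.31e-05). 5430413K10Rik was at least 4.43-fold lower, a call lost without wild-type replicate 1. Acp5, an acid phosphatase of macrophages and osteoclasts (-2.42), Expi (-2.13), the thyroid hormone-binding protein Crym (-2.08) and the channel Pkd2l1 (-1.70) were the others.

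The same contrast was set against that of the cortex, from other arrays of the same groups. The change differed between regions for 3.38% of 31560 tested probes, 464 higher and 603 lower in the cerebellum, counts that became 43 and 101 with the arrays scaled to their median. Over the 27957 probes tested in both regions, the changes correlated at r = 0.34 across probes, which are not independent replicates, and 57.46% had one sign. Of the 15 largest rises, 9 differed between regions, though only Cbx7 among those 9 was tested in the cortex, where the others were not above background on all arrays of a group. Cbx7 changed by 0.30 in the cortex, and the difference was 1.33 (limma adjusted p = 0.00198). Of the 15 largest falls, 4 differed, Cd79b (-0.12 in the cortex), Necab1 (-0.41), Expi (-0.32) and Crym (-0.04). Car8 changed by -2.71 in the cortex and Gm13298 by -4.11. Fcrls changed by -0.39 there (difference -1.04, limma adjusted p = 0.0471), while Tyrobp changed by -0.53 (adjusted p = 0.0062) and Cst7 by -1.43.

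**Figure D5:**
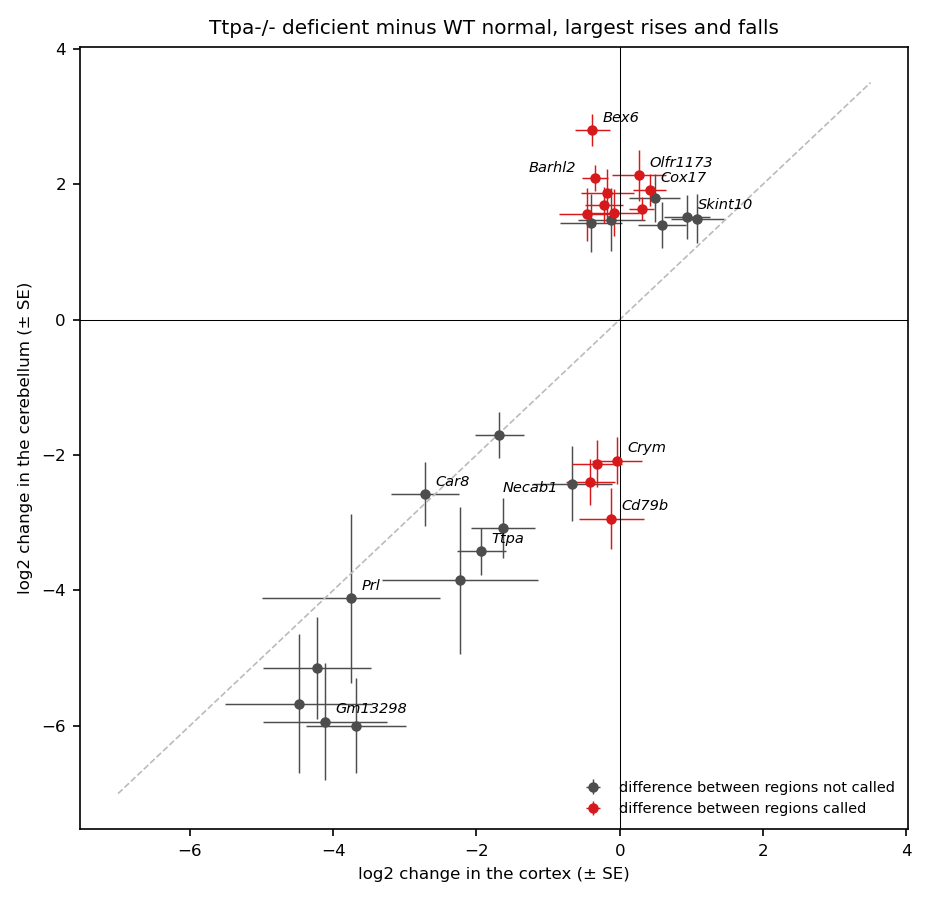
Log2 change in the cerebellum against that in the cortex (Ttpa-/- deficient minus wild type normal, each with its SE) for the 15 largest rises and 15 largest falls of the cerebellum, with genes whose change differed between the regions in red. Points are fitted values, also where a group was not above background. Bex6 was above background on no wild-type cerebellum array and on no cortex array of either group, and Car8 lies near the line of equal change.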

How the data were processed

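RNA of each sample was hybridised to one single-colour Agilent mouse array. The authors deposited the scanner tables, with processed, mean and background intensity per spot, made with Feature Extraction 10.7.3.1 per the file headers (the submitters' processing notes list 10.1.1.1). Processed intensity is background-subtracted and not normalized between arrays. A second table deposited by the authors holds log2 values, a median of 0.000915 away from the scaled and centred log2 intensity. The deposited flags are scores of 0 or 1. Of the other scanner columns, 45 were not used.

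Control spots and outlier flags were left out, spots of a probe averaged, and log2 processed intensity taken minus the 75th percentile of each array. limma 3.58.1 (R 4.3.3, data.table version 1.17.8) was fitted to 40 arrays in 10 groups, and p-values were adjusted over all probes tested. The script was tested on simulated data. Exact permutation tests compared values per array. Precision is limited by 4 arrays a group. The labels do not say that arrays are separate animals, while the paper states 4 mice a group, so p-values measure the spread between arrays. A probe not well above background on any array of a group has only a bound, given as "at least": the bright group's mean against, per array, the higher of the lowest signal well above background and the probe's own.

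Named genes were those of the study, the 15 largest rises and falls of named genes by brightest probe without overlap between groups, up to 4 called members per list and direction (the largest values where none was called), and the 5 largest region differences each way. Members and lists were chosen with earlier results of these data known. Of 607 genes in 41 lists, 599 were found on the arrays by name, and 2071 of 20349 matched names have another symbol in RefSeq. Alternatives were median scaling, quantile normalization, normexp, the authors' values, no filter, replicate blocks, fits to fewer arrays, unadjusted p, the methods' t-test and each array left out.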

Additional observations from a re-analysis of the deposited data

Results flagged for a closer look

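Within the 4 arrays of a group, 16 of 190 sets of values had a lone array by Dixon's test, where chance flags about 1 in 20. Of the 7 in the Ttpa-/- arrays 4 were replicate 4, which lay toward the wild type for Car8 (3.65), Gm1987 (0.14), 4933409K07Rik (-0.23) and Ccl27a (3.07). Replicate 2 stood apart for Fcgbp (-5.55) and Fgfbp3 (0.74), and replicate 1 for Abhd3 (-4.13). In the wild-type arrays, replicate 1 stood apart for H2-Ab1 (1.82), Klhl32 (2.77) and Fcgbp (-7.06), replicate 3 for Necab1 (-2.10) and Pkd2l1 (-2.70), and replicate 4 for Olfr1173 (-2.21), Cst7 (0.75), Tyrobp (3.43) and Tcfap2b (2.43).

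The change in the cerebellum minus that in the cortex differed by limma's interaction term for 18 of the genes reported. It was positive for Bex6 (3.18, adjusted p = 1.93e-06), Barhl2 (2.44), Lyar (2.03), 1700071K01Rik (2.01), Abhd3 (1.91), Olfr1173 (1.86), Lilra5 (1.66), Cox17 (1.49), Cbx7 (1.33) and Tcfap2b (0.95). It was negative for Fcrls (-1.04, adjusted p = 0.0471), Cartpt (-1.25), Expi (-1.82), Necab1 (-1.99), Crym (-2.04), Atp6v1c2 (-2.12), Chsy3 (-2.36) and Cd79b (-2.82). Bex6, Barhl2, Lyar and Abhd3 were above background on none of the 8 cortex arrays, so their change there is not a measured level. In the cerebellum, Bex6, Lyar and Abhd3 were above background on no wild-type array and Cd79b, Atp6v1c2 and Chsy3 on no Ttpa-/- array, and Atp6v1c2 and Chsy3 were not tested there, so the differences of these genes are fitted values and not measured sizes.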

How the results depend on the processing

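Over 19 alternatives, 93 reported genes gave 1767 values, of which 1568 kept direction and side of the threshold, 175 lost the call, 16 gained it and 8 changed sign, none of the 8 in a called gene. Those 8, all with single arrays left out, were of Pla2g3 (range -0.17 to 0.22), Mybpc2 (-0.719 to 0.0492), Tmem119 (-0.073 to 0.0649) and Cx3cr1 (-0.116 to 0.0298). The 817 rises became 314 with normexp and 465 with the methods' t-test after Benjamini-Hochberg. The 549 falls became 325 with median scaling, 179 with normexp, 252 with the compared groups alone, 145 with the t-test after Benjamini-Hochberg and 890 without adjustment. Rises were 59.81% of calls, 71.23% with the compared groups alone and 76.23% with the adjusted t-test. Leaving out single arrays gave 571 to 975 rises and 378 to 703 falls.

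Region differences (464 higher, 603 lower) became 43 and 101 with median scaling, 240 and 197 with the compared groups alone and 1085 and 1316 without adjustment. They became 4538 higher without the filter and 399 lower with normexp. Single arrays left out gave 287 to 748 and 305 to 1034, the lowest without cerebellar Ttpa-/- replicate 4 and the highest without cortical Ttpa-/- replicate 4. Between the diets in Ttpa-/- mice, as percentages of the probes tested, 0.134 up and 0.209 down became 0.0359 and 0.0685 (median scaling), 0 and 0 (compared groups alone, and adjusted t-test), 0.049 and 0.0946 (20 cerebellum arrays), 0.522 and 1.19 (no adjustment) and 0.349 and 0.956 (unadjusted t-test), with 0.117 down without the filter, and 0.0567 to 0.278 and 0.0716 to 0.475 with single arrays left out. In the wild type, 0.458 up and 0.816 down became 0.0871 and 2.00 (median scaling), 0 and 0 (compared groups alone, and adjusted t-test), 0.0355 and 0.029 (20 cerebellum arrays), 2.37 and 1.84 (no adjustment) and 2.44 and 1.52 (unadjusted t-test). Its falls were 1.80 by quantile normalization, 0.378 by normexp and 0.347 without the filter. Single arrays left out gave 0.0129 to 1.25 and 0.0257 to 1.37, both lowest without deficient replicate 1 and highest without deficient replicate 4. The cause was not tested.

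Replicate numbers are shared by the groups, but deviations of same-numbered Ttpa-/- and wild-type arrays correlated at 0.12, -0.45, 0.07 and -0.29, so the numbers do not pair them. With the number as a block, 843 probes rose and 569 fell. A slide block could not be fitted, since each group lay within one slide. Probes near background had bounds only.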

Other observations

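Fgfbp3, a neighbour of Ide chosen after its values were seen, was at 1.39, 1.42, 0.46 and 0.48 in the wild-type arrays, high in the same replicates as Ide, and at 0.56, 0.74, 0.56 and 0.57 in the Ttpa-/- arrays. Atp6v0d2, a proton pump subunit that lies beside Ttpa and was likewise chosen later, was at -5.92, -6.03, -6.12 and -5.61 in the Ttpa-/- arrays and at -4.48, -4.22, -4.36 and -4.15 in the wild type (limma adjusted p = 0.000318). Ttpa-/- replicate 2 of the cerebellum had the widest spread of deviations from its group mean over all probes, an SD of 0.404. Across regions, the deviations of same-numbered Ttpa-/- arrays correlated at 0.16, 0.37, 0.15 and 0.49, and the labels do not say whether a number marks one mouse.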
